A study of Homo sapiens with 2 samples.

Results

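The 9 genes MDM2, BAX, BBC3, PMAIP1, GADD45A, GADD45B, FAS, TNFRSF10B and AEN were examined. This set of p53, GADD45 and death receptor genes holds the p53 antagonist MDM2, mitochondrial death genes, GADD45 stress genes and death receptors. Members were all probe sets whose platform annotation names 1 of these genes and no other gene. This gave 29 probe sets for 8 genes, out of 41097 probe sets for 19775 genes. BBC3 had no probe set of its own, since the 1 probe set that lists it also lists 2 microRNA genes, and it is not analysed here. The RNA came from 2 stably transfected cultures of OECM1, a long-established line of head and neck carcinoma cells, grown in the same serum-containing medium. The control culture carried the pmR-mCherry empty vector, which encodes a red fluorescent protein, and the other carried pmCherry-let7i, which adds the microRNA let-7i. With 1 array in each group, differences had no replicate check, no test across samples was possible and no SD between cultures can be given. The labels do not say whether a culture was 1 clone or a pool of transfected cells.

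The transcription factor p53 responds to DNA damage and other stress by switching on genes that stop the cell cycle, repair DNA or start cell death. MDM2 marks p53 for degradation and is itself a p53 target, which makes a feedback loop. BAX, BBC3 (PUMA) and PMAIP1 (NOXA) act at the mitochondrial membrane, while FAS and TNFRSF10B (the TRAIL receptor DR5) carry death domains and start caspase activation from the cell surface. The GADD45 proteins respond to growth arrest and DNA damage signals and activate stress MAP kinases, and AEN is a nuclease that p53 induces. let-7 microRNAs repress messenger RNAs that carry matches to the microRNA's seed, the bases near its 5′ end.

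The mature let-7i strand is shown first because it is the molecule that the cultures were made to differ in, with its seed (bases 2 to 8) in capitals. It is taken from RefSeq, build GRCh38.p14, at chr12:62603691-62603712 on the plus strand.
hsa-let-7i-5p: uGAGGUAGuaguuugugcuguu
A target RNA pairs with this seed through the letters CUACCUC, and 11 mature microRNAs of the RefSeq table share the seed. The array does not measure mature microRNAs, so the level of let-7i did not check the labels.

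The promoters of the members were searched for the consensus p53 half-site, which reads the same on both strands, because p53 is a theme of this set. The search covered the 250 bases before and 50 bases after each start site in the RefSeq table, and a match was a pair of adjacent half-sites with both central 4-base cores intact and at most 2 mismatches outside them. Such a pair occurred in 55 of 35116 windows (0.157%). Windows were at hand for 7 members, 12 windows in all, and 2 of them held a match, 1 of AEN and 1 of FAS. The 7 members include BBC3, while GADD45A and TNFRSF10B had no window and were not searched. Both matches are shown on GRCh38.p14, plus strand, with the cores in capitals, at chr15:88621306-88621325 for AEN and chr10:88991309-88991328 for FAS.
AEN: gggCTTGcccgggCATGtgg
FAS: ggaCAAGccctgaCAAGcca
Each match had 2 mismatches. The members were chosen by theme, with p53 among the themes, so these matches are a description. A window without one shows only that these letters are not in it.

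GADD45A differed more than any other member measured on both arrays. Its signal was 1454 in control cells and 3483 in let-7i cells, which is 2.39-fold higher. AEN was 1.65-fold higher. The other 6 members with a probe set, MDM2, BAX, PMAIP1, GADD45B, FAS and TNFRSF10B, lay between log2 ratios of -0.46 and 0.14 in their brightest probe sets. GADD45B, the relative of GADD45A, was at the lower end, 1.38-fold lower with let-7i. Values here are MAS5 signals in arbitrary units, each array scaled to a common mean, and a log2 ratio is let-7i over empty vector, centred on the median of all genes measured on both arrays. RNA of whole cultures was measured, so fewer expressing cells and less RNA per cell cannot be told apart.

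Of the 29 member probe sets, 19 reached the floor on both arrays, the floor being the median signal of the array (88.0 in control cells, 79.5 in let-7i cells). A further 2 were below it with let-7i only and give a bound, 1 was below it with the empty vector only and leaves its direction open, and 7 were below it on both and get no ratio. The 19 ratios split into 9 higher and 10 lower, with a median of -0.02, beside a median of -0.02 over all probe sets measured on both arrays. Within 0.25 of no difference lay 14 of the 19 (73.7%), beside 60.3% of all such probe sets. Past 2-fold was 1 probe set, that of GADD45A, and none of the 19 was 2-fold lower. The 2 bounds, both of MDM2 (at least 1.95-fold and at least 1.85-fold lower), do not exclude a 2-fold lower level. Over all probe sets that reached a floor on at least 1 array, bounds included, 0.982% were higher by at least 2-fold and 1.39% were lower by that much.

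**Figure D1:**
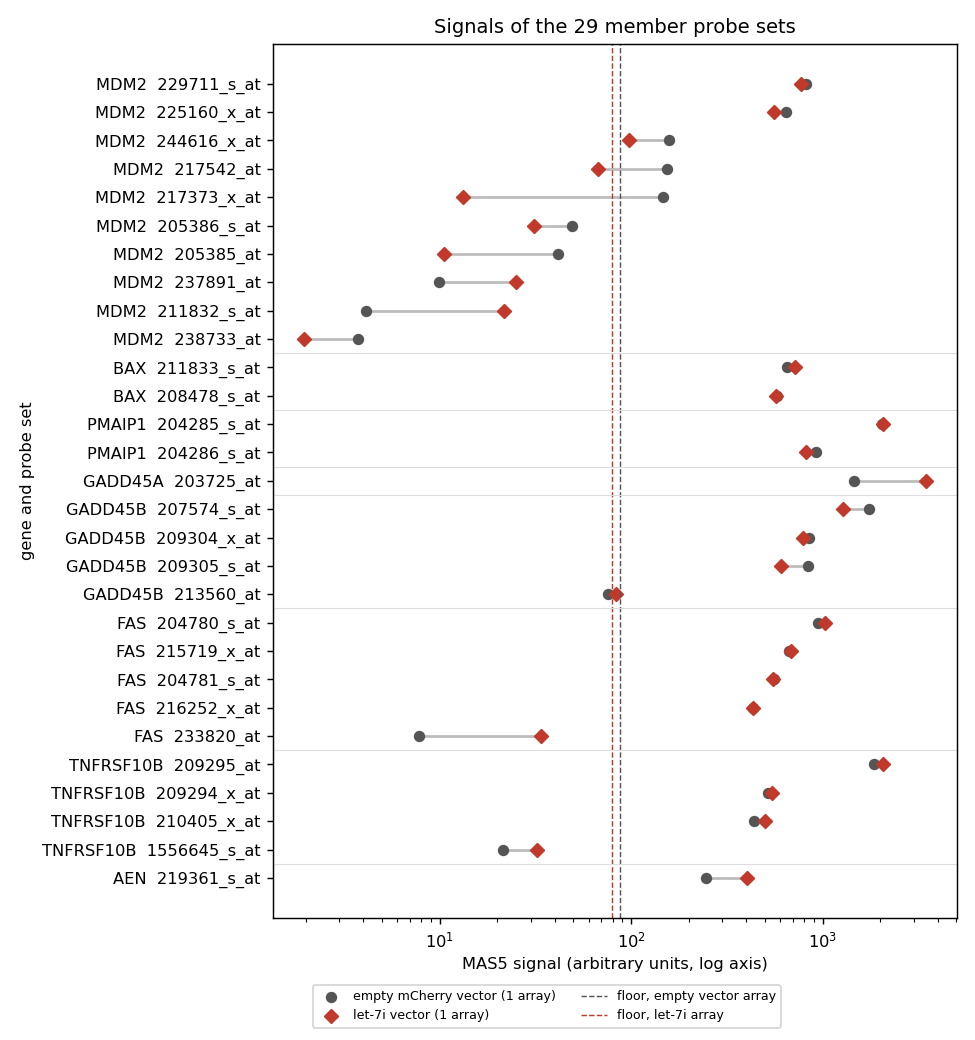
MAS5 signal on a log axis for each of the 29 member probe sets, with 1 point per array (grey circles, empty vector; red diamonds, let-7i) and the floor of each array as a dashed line. The GADD45A points, at 1454 and 3483, are the widest apart among probe sets above both floors, while the widely spaced pairs of MDM2 and FAS lie partly or wholly below the floors.

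Counted by gene through its brightest probe set, 6 of the 8 members were higher and 2 lower with let-7i, beside 48.7% of all genes higher and 49.8% lower, and the median log2 ratio was 0.13, beside -0.01 over all 12284 genes with a ratio. Of the 8 members, 5 (62.5%) lay within 0.25 of no difference, beside 62.7% of all genes measured on both arrays. This share is near the background. At least 2-fold higher was 1 member (GADD45A), beside 1.06% of all genes, and 0 members were at least 2-fold lower, beside 1.38% of all genes. At a limit of 1.5-fold, 2 members (GADD45A and AEN) were higher, beside 4.18% of all genes, and 0 lower, beside 5.93%.

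GADD45A, which is induced by p53 and by other stress signals, had a single probe set, so no other probe set of the gene checks its value. Its log2 ratio was 1.26. Of 11140 genes measured on both arrays, 49 (0.440%) had a ratio at least this high. The spread of 1 probe set, estimated from genes with several probe sets, had an SD of 0.15 at signals of this size, and the ratio was 8.38 times that SD. This SD covers disagreement between probe sets and holds no variation between cultures. The ratio stayed between 1.23 and 1.29 in all 7 other ways of scaling, flooring and combining probe sets that were run on the gene.

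GADD45B, which is induced by TGF-beta, NF-kB and stress signals, was represented by 4 probe sets. Probe set 207574_s_at had signals of 1749 (empty vector) and 1274 (let-7i), and 209305_s_at had 843 and 610. These gave log2 ratios of -0.46 and -0.47, which are 3.07 and 2.40 times the SD of 1 probe set at their signals. Probe set 209304_x_at differed less, with signals of 847 and 791 and a log2 ratio of -0.10. That is 0.52 times the SD at its signal and so not separable from probe noise. The 3 measured probe sets thus all read lower with let-7i but disagreed on the size of the difference. The last one, 213560_at, was dim (76.2 and 83.4) and leaves the direction open. Of the 11140 genes, 930 (8.35%) had a ratio at least as low as that of 207574_s_at. GADD45A and GADD45B therefore lay on opposite sides of no difference in this pair of cultures, and the third family gene, GADD45G, was below the floor on both arrays (57.5 and 77.3).

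**Figure D2:**
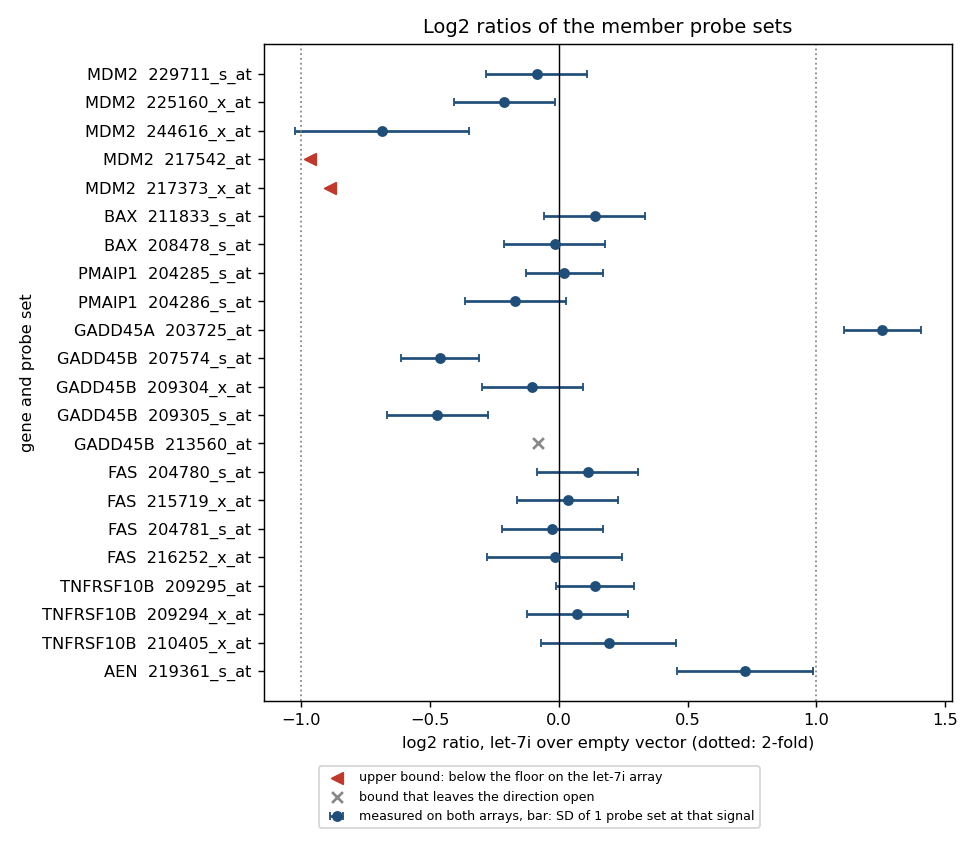
Log2 ratio of let-7i over empty vector for the 22 member probe sets that reached the floor of either array, with the SD of 1 probe set at that signal as the bar, arrowheads for bounds and a cross for the bound of open direction. GADD45A at 1.26 is the only point beyond the dotted 2-fold lines, AEN at 0.72 is the next highest, and the points of BAX, PMAIP1, FAS and TNFRSF10B lie between -0.17 and 0.19.

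AEN, an exonuclease that takes part in p53-dependent cell death, also had a single probe set. Its signals were 245 and 405, a log2 ratio of 0.72. Of the 11140 genes, 250 (2.24%) had a ratio at least this high. The ratio was 2.74 times the SD of 1 probe set at such signals (0.26), so it stands less far from probe noise than that of GADD45A. Over 6 alternatives it ran from 0.71 to 0.78.

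MDM2, the ubiquitin ligase that restrains p53, had 10 probe sets, and they fell into 3 sets by signal. The 2 brightest hardly differed. 229711_s_at had signals of 815 and 769, in the order empty vector and let-7i used from here on (log2 ratio -0.09), and 225160_x_at had 645 and 559 (log2 ratio -0.21). The 3 dimmer probe sets above the floor with the empty vector all read lower with let-7i. Of these, 244616_x_at had signals of 157 and 98.1 (log2 ratio -0.68), which is 2.03 times the SD of 1 probe set at such signals (0.34). The remaining pair dropped below the let-7i floor, 217542_at from 155 to 67.1 and 217373_x_at from 147 to 13.3, and were at least 1.95-fold and at least 1.85-fold lower. Neither array reached the floor in the last 5 probe sets, whose signals ran from 1.97 to 49.2. The value for MDM2 therefore depends on the probe set, from a log2 ratio of -0.09 in the brightest to -0.54 in the mean over its probe sets and -0.95 when probe sets shared between transcripts are left out. Both of the latter are bounds, since the mean takes in the 2 probe sets set to the let-7i floor and the value of -0.95 is that of 217542_at.

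BAX, which opens pores in the outer mitochondrial membrane, had 2 probe sets. 211833_s_at had signals of 650 and 718 (log2 ratio 0.14), and 208478_s_at had 575 and 571 (log2 ratio -0.02). PMAIP1, a BH3-only protein that binds the survival factor MCL1, also had 2. 204285_s_at had signals of 2043 and 2080 (log2 ratio 0.02), and 204286_s_at had 919 and 820 (log2 ratio -0.17). In both genes the probe sets lay on either side of no difference, and each ratio was smaller than the SD of 1 probe set at its signal.

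FAS, the receptor for FAS ligand, had 4 probe sets above both floors, and none differed beyond probe noise. Their signals were 950 and 1030 for 204780_s_at, 667 and 686 for 215719_x_at, 557 and 548 for 204781_s_at, and 435 and 431 for 216252_x_at. The log2 ratios ran from -0.03 to 0.11, with 2 above and 2 below no difference. The remaining probe set, 233820_at, was below the floor on both arrays (7.83 and 34.1).

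TNFRSF10B, a death receptor for TRAIL, read slightly higher with let-7i in its 3 measured probe sets. The signals were 1866 and 2063 for 209295_at, 520 and 547 for 209294_x_at, and 436 and 500.04 for 210405_x_at. The log2 ratios were 0.14, 0.07 and 0.19. Each was smaller than the SD of 1 probe set at its signal (0.15, 0.20 and 0.26), so a difference in TNFRSF10B was not separable from probe noise. Its remaining probe set, 1556645_s_at, was below the floor on both arrays (21.4 and 32.3).

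**Figure D3:**
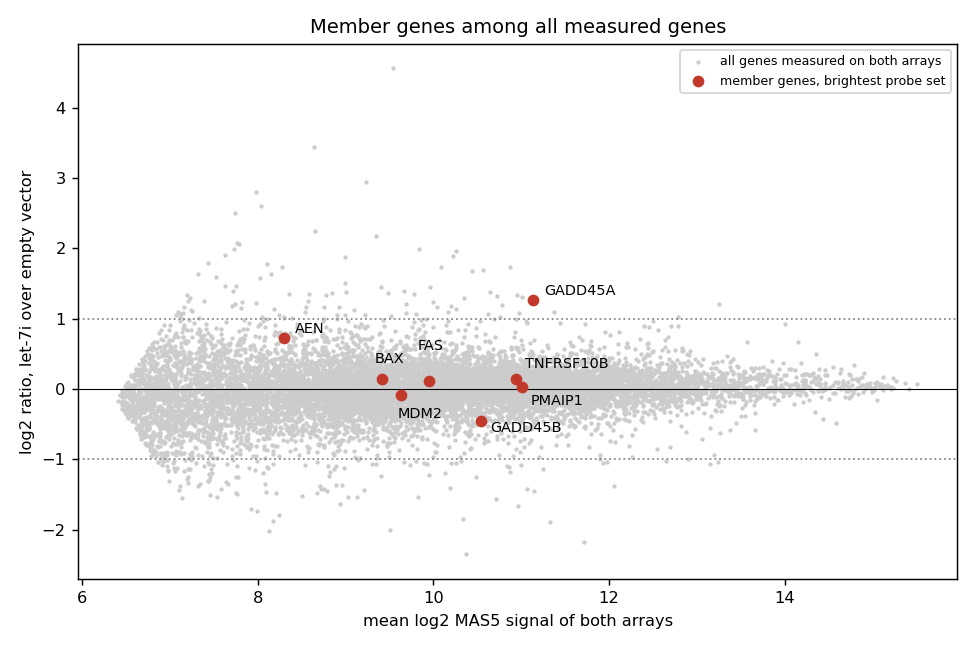
Log2 ratio against mean log2 signal for the 11140 genes measured on both arrays (grey), with the 8 members in red at their brightest probe set. GADD45A stands above the 2-fold line in a region where few genes do, AEN lies below that line at a dimmer signal, and the other 6 members lie within the bulk of the grey points.

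The TRAIL ligand and a TRAIL decoy receptor had larger ratios than FAS and TNFRSF10B themselves. TNFSF10, which encodes the ligand TRAIL, was 2.90-fold lower with let-7i, with signals of 888 and 307 in 202688_at, 589 and 173 in 214329_x_at and 487 and 140 in 202687_s_at. All 3 probe sets read lower, with log2 ratios of -1.54, -1.77 and -1.80. TNFRSF10D, a TRAIL receptor with a truncated death domain that acts as a decoy, was 1.99-fold higher, with signals of 1167 and 2325 in 227345_at and 277 and 508 in 210654_at and log2 ratios of 0.99 and 0.87. The other signalling receptor, TNFRSF10A, hardly differed, with 3 probe sets between 0.01 and 0.12. The decoy TNFRSF10C was below the floor in 3 of its 4 probe sets, and the brightest (93.1 and 51.7) was at least 1.17-fold lower. FASLG, the FAS ligand, was below the floor on both arrays in both its probe sets, so no ratio is given for it.

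**Figure D4:**
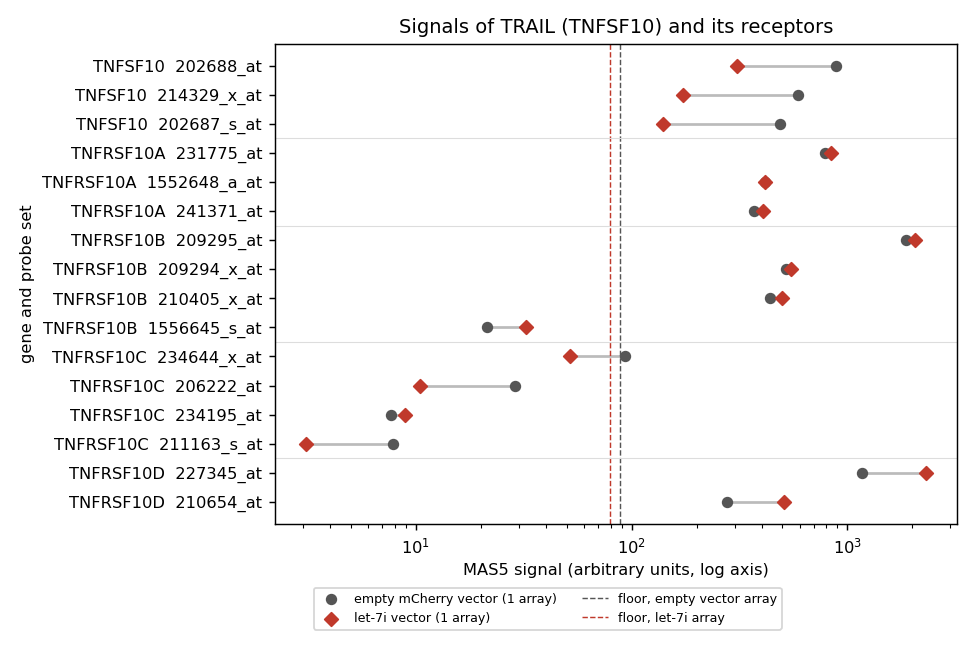
MAS5 signal on a log axis for the probe sets of TRAIL (TNFSF10) and its receptors TNFRSF10A, TNFRSF10B, TNFRSF10C and TNFRSF10D, with 1 point per array and the floor of each array dashed. In all 3 TNFSF10 probe sets the let-7i point lies to the left, in both TNFRSF10D probe sets it lies to the right, and for TNFRSF10A and the 3 TNFRSF10B probe sets above the floor the points nearly coincide.

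Of 25 genes in the death receptor signalling list, 17 had a ratio, 11 higher and 6 lower, with a median of 0.06. By value or bound, 1 was at least 2-fold lower (TNFSF10), beside 1.38% of all genes, and none was 2-fold higher, beside 1.06%. FADD, the adaptor that the death domains recruit, had signals of 9188 and 9534 (log2 ratio 0.05). CASP8, the initiator caspase, had 1485 and 1792 in its brightest probe set (log2 ratio 0.27), and CFLAR, its inhibitor, had 10 measured probe sets between -0.47 and 0.13, of which 8 were lower. BID, which links CASP8 to the mitochondria, was lower in all 3 probe sets, with log2 ratios between -0.88 and -0.36. TNFRSF1A, the main TNF receptor, had a log2 ratio of 0.23. TNFRSF25, a death receptor of lymphocytes, was dim and gave bounds of opposite sign in 2 probe sets (0.65 and -0.25).

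Other p53 target genes lay on both sides of no difference. Of 40 listed, 34 had a ratio, 19 higher and 15 lower, and the median was 0.01. None had a value or bound past 2-fold, beside 1.06% of all genes higher and 1.38% lower. CDKN1A, the p53-induced CDK inhibitor p21, had signals of 444 and 732, a 1.65-fold higher level in its single probe set. At least 1.5-fold higher were also TNFRSF10D and EI24, which with CDKN1A makes 3 of 34, beside 4.18% of all genes. At least 1.5-fold lower were PIDD1, APAF1 and ACER2, 3 of 34, beside 5.93% of all genes. EI24 and ACER2 were named after their values were seen. PIDD1, a death domain protein that p53 induces, was 1.68-fold lower in the brighter probe set (608 and 363) but had a log2 ratio of -0.03 in its other one. APAF1, the scaffold of the apoptosome, had a brightest probe set that was 1.67-fold lower (674 and 405), and 3 probe sets between -0.74 and -0.01. The 2 probe sets of EI24 disagreed (0.69 and -0.12), and ACER2 gave a bound.

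Of 19 regulators of p53, 16 had a ratio, 7 higher and 9 lower, with a median of -0.02. None was past 2-fold, beside 1.06% of all genes higher and 1.38% lower, so the count is near the background. MDM4, the partner of MDM2, had signals of 1649 and 1831 in its brightest probe set, and 6 probe sets between -0.41 and 0.15. HIPK2, a kinase that phosphorylates p53, had a brightest probe set that was 1.54-fold higher (814 and 1255), yet its 6 measured probe sets ran from -0.35 to 0.62. TP53BP1, a DNA damage adaptor, had a log2 ratio of -0.42 in its brightest probe set and 3 measured probe sets between -0.42 and -0.02. PPM1D, a phosphatase that shuts off the response, had 0.25 in its brightest probe set and a bound of -0.17 in the other. CDKN2A, whose ARF product inhibits MDM2, had log2 ratios of -0.19 and -0.0023. TP73, a p53 relative, had -0.03 in its brightest probe set and -0.43 in its other measured one. 

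Of 16 partners of GADD45 and stress MAP kinases, 12 had a ratio, 10 higher and 2 lower, with a median of 0.05. None had a value or bound past 1.5-fold, beside 4.18% of all genes higher and 5.93% lower, so this count is also near the background. MAP3K4, the kinase that GADD45 proteins bind and activate, had signals of 647 and 695 (log2 ratio 0.10). GADD45GIP1, a GADD45-interacting protein, had 2320 and 2408 in its brightest probe set (log2 ratio 0.05) and a log2 ratio of -0.34 in its other measured one. MAPK8, the kinase JNK1, had a log2 ratio of 0.40 in its brightest probe set, but its 5 probe sets ran from -0.87 to 0.40 and their mean was -0.13 after centring. MAP2K6 gave a bound of 0.44, which does not exclude a 1.5-fold higher level. TDG, a DNA glycosylase, had log2 ratios of -0.19 in its brightest probe set and 0.15 in the other.

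Among the BCL2 family partners of BAX, BBC3 and PMAIP1, 14 of 15 had a ratio, 9 higher and 5 lower, with a median of 0.17. None had a value or bound past 2-fold, beside 1.06% of all genes higher and 1.38% lower. The bound of BMF does not exclude a 2-fold lower level, and its log2 ratio was -1.89 with the floor at the 25th percentile. The largest differences were in BMF, a BH3-only protein that was at least 1.70-fold lower at a dim signal (134 and 35.9), BIK, another BH3-only protein (130 and 209, 1.60-fold higher), and BCL2L1, which encodes the survival protein BCL-XL (518 and 774, 1.49-fold higher, with 3 measured probe sets all higher).

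**Figure D5:**
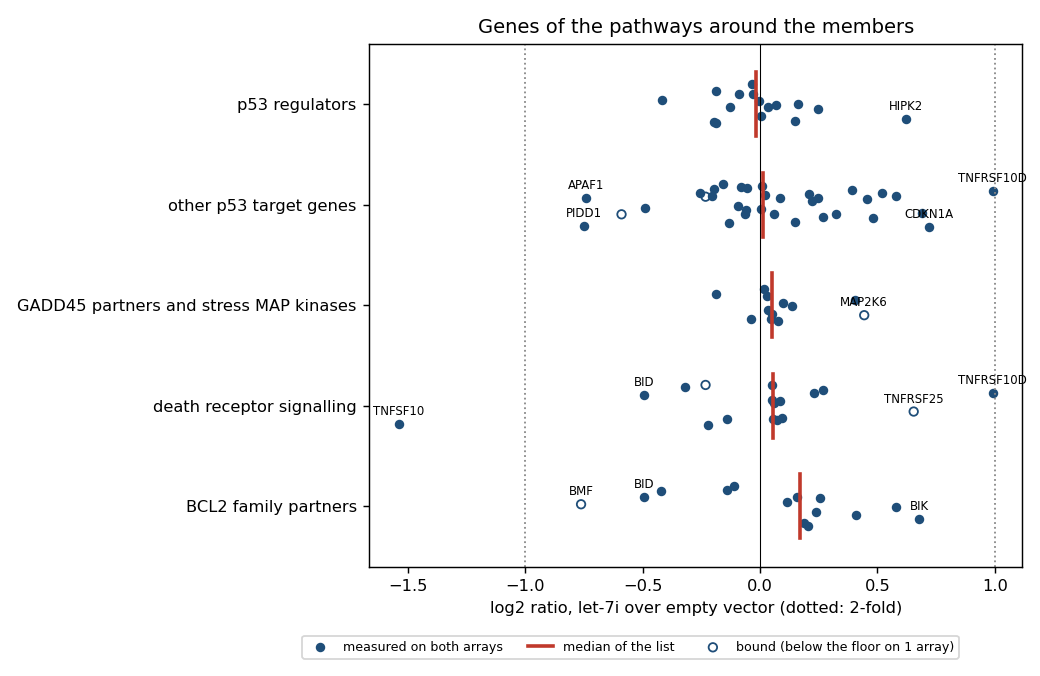
Log2 ratio of each gene with a ratio in the 5 pathway lists, by its brightest probe set, with filled points for genes measured on both arrays, open points for bounds, a red bar for the median of the list and dotted lines at 2-fold; vertical scatter within a list carries no meaning. The medians lie between -0.02 and 0.17, and TNFSF10 is the only gene beyond a 2-fold line.

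Among cell type markers, CDH1, EPCAM and DSP of the 8 squamous epithelial genes listed had signals above the floor, while the basal keratins KRT5 and KRT14 did not reach it on either array. Signals above the floor were also found for 2 of 8 fibroblast, 3 of 8 leukocyte and 1 of 5 endothelial markers. The summed signal over these lists was 699 (control) and 946 (let-7i) for fibroblast markers, 542 and 577 for leukocyte markers and 424 and 474 for endothelial markers. The defining leukocyte gene PTPRC (55.8 and 58.3) and the endothelial gene CDH5 (46.3 and 54.5) were below the floor on both arrays, as were COL1A2, COL3A1 and PDGFRA of the fibroblast list. In their brightest probe sets, the fibroblast genes DCN (163 and 322, 1.97-fold higher) and COL1A1 (346 and 415) were above it. So were the leukocyte genes CD3E (173 and 90.4, 1.91-fold lower), LCP1 (166 and 201) and ITGAM (90.5 and 109), and the endothelial gene PECAM1 (319 and 372). DCN was measured on both arrays in only 1 of its 7 probe sets, and COL1A1 in 2 of 5. The 3 measured probe sets of PECAM1 had log2 ratios from -0.28 to 0.22. For the squamous epithelial list the summed signal was 25366 (control) and 20017 (let-7i), with 2 of 3 genes lower and a median of -0.42. EPCAM was 1.64-fold lower (10912 and 6690), CDH1 1.34-fold lower (6785 and 5090) and DSP 1.07-fold higher. The part of any of these markers in the values of the members was not tested.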

How the data were processed

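Biotinylated cRNA was made from total RNA of 2 OECM1 cultures, per the labels' protocols. The deposited intensities are 1-colour MAS5 signals, per the submitters' processing notes, which as used here give no version or settings. Both arrays have a mean of 500.06 after trimming 2% at each end, so differences in total RNA per cell are scaled away, and MAS5 makes dim values noisy. Detection calls were not used here. The number of arrays limits the precision.

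Of 54675 probe sets, 41097 carried 1 gene symbol in the platform annotation, 1801 carried several and 11777 were not listed; for 41043 of the 41097 the Entrez ID was found in RefSeq (GRCh38.p14), with the same symbol. Only the 41097 were used, and listed genes without a probe set of their own were not analysed here. The probe set of highest mean log2 signal stood for its gene. The floor was the 50th percentile of each array, and a signal below it was set to it, which makes the ratio a bound. Ratios were centred by 0.0036. For the spread of 1 probe set, the 2 brightest measured probe sets of 5807 genes were compared, and the SD of their difference was divided by the square root of 2 (0.25 in all, 0.34 for the dimmest bin and 0.15 for the brightest). Genes were called by size at 2-fold.

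The members, the lists and these settings were chosen with earlier results of these data known. Named were all member probe sets, a panel of 20 genes where they have a probe set, and the 3 largest ratios of each of 5 lists. No genes of a like pattern are named, because 2 arrays give 1 ratio per gene. Settings tried as alternatives were uncentred ratios, a lowess curve (0.3 of the genes, 3 iterations), quantile normalization, a lower floor (25th percentile) or a higher one (65th), averaging a gene's probe sets, dropping probe sets with IDs in _s_at or _x_at, and size limits of 1.5-fold or 3-fold. The procedure was run on simulated data with noise between probe sets only, which checks the computation and not variation between cultures. Computations ran in Python 3.11.15 with pandas 2.3.3, NumPy 2.4.6, Matplotlib 3.10.9 and statsmodels 0.14.6.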

Additional observations from a re-analysis of the deposited data

How the results depend on the processing

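Counted by gene, GADD45A was the only member past 2-fold in the alternatives of centring, normalization, floor and probe set choice, and no member had a value or bound at 2-fold lower in any of them; a threshold of 1.5-fold gave 2 members higher and a threshold of 3-fold gave 0. Without shared probe sets BAX, PMAIP1, FAS and AEN have no value, and the bound of MDM2 there does not exclude a 2-fold lower level. The median of the member genes ran from 0.07 to 0.14 in the other settings and was 0.04 there, over 4 genes of which MDM2 is a bound and GADD45B has an open direction. The median of the death receptor signalling list ran from -0.17 to 0.08. Among the members, MDM2 moved most, to a log2 ratio of -0.54 with the mean of probe sets, which takes in bounds, and to a bound of -0.95 without shared probe sets, and GADD45B moved to -0.25 with the mean of probe sets. With the lower floor (25th percentile), the MDM2 probe set 217542_at was above it on both arrays, with a log2 ratio of -1.19, which is past 2-fold lower. The other bound of MDM2, that of 217373_x_at, became -2.94 with that floor, and BMF read -1.89. The log2 ratio of TNFRSF10D lay on the 2-fold limit, at 1.01 with that floor and at 1.01 without shared probe sets. In the pathway lists, counted by value or bound, 0 genes were 2-fold higher and 1 lower. These counts were 2 and 4 with the lower floor, 6 and 5 at 1.5-fold, 1 higher without shared probe sets and 0 lower at 3-fold. Over all genes, 130 were 2-fold higher and 169 lower, against 654 and 1113 with the lower floor, 62 and 71 with the higher one (65th percentile), 514 and 728 at 1.5-fold and 34 and 24 at 3-fold. The spread of 1 probe set was 0.39 with the lower floor, which takes in dimmer probe sets. No paired analysis was possible because each group has 1 array and the result comes from no test. Signals near the floor limit what can be said of MDM2's dim probe sets, GADD45G, FASLG and TNFRSF10C.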
